A study of Mus musculus with 6 samples.

Results

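The integrin subunits and laminin chains of the mouse were chosen by gene symbol, and 37 of the 30281 symbols in the data matched: 18 integrin alpha genes, 8 integrin beta genes and 11 laminin genes. The values come from 6 RNA-Seq libraries of poly(A) RNA with 1 library per condition. Mouse embryo fibroblasts (MEFs) of genotype Tsc2+/+ and Tsc2-/- gave 1 library each, and both MEF lines also carry p53-/-. The other 4 libraries are from MKOC and TJ cells, which are lines of kidney epithelial cells labelled Tsc2-null, the TJ line being tumor-derived. Each kidney line was either left untreated or given 100 nM rapamycin, an inhibitor of mTORC1, for 18 h, and the protocol describes serum-free DMEM with 0.1% BSA, with diluent as the control. Each line is a single line, and no kidney line is labelled as carrying intact Tsc2, so kidney cells were not compared by Tsc2 genotype.

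Integrins are receptors made of 1 alpha and 1 beta subunit that span the cell membrane and tie the matrix outside the cell to the cytoskeleton inside. Laminins are secreted trimers of 1 alpha, 1 beta and 1 gamma chain, and they form the sheet of the basement membrane on which epithelial cells rest. The alpha subunit of an integrin largely sets the ligand, so that *Itga3*, *Itga6* and *Itga7* encode receptors for laminin, *Itga1*, *Itga2*, *Itga10* and *Itga11* receptors for collagen, and *Itga5*, *Itgav*, *Itga8* and *Itga2b* receptors for ligands with the RGD motif such as fibronectin. In kidney tubules laminin with the chain of *Lama5* is a main part of the basement membrane, and epithelial cells hold on to it through the products of *Itga3*, *Itga6*, *Itgb1* and *Itgb4*.

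Estimated counts per library were between 22887020 and 37505004. *Tsc2* RNA was at 22.6 TPM (a level scaled to transcript length and to the library) in Tsc2+/+ MEFs and at 10.5 TPM in the library labelled Tsc2-/-, and at 49.1 and 44.0 TPM in untreated MKOC and TJ cells and 19.5 and 19.1 TPM in the treated ones. The untreated kidney lines thus had more *Tsc2* RNA than Tsc2+/+ MEFs, no library labelled as lacking Tsc2 was without it, and genotypes are given here as labelled. The genotypes were not checked by these values, since the tables do not show which exons the reads covered. Of 8 epithelial markers, *Krt8* was between 539 and 990 TPM and *Cdh1* between 101 and 128 TPM in the kidney lines, but *Cldn7* was at 0 there and *Epcam* at 0 in 3 of the 4 libraries and at 0.0268 TPM in untreated MKOC cells. The 10 fibroblast markers summed to 2096 and 2579 TPM in Tsc2+/+ and Tsc2-/- MEFs and to between 7.78 and 52.3 TPM in the kidney lines. The collagen gene *Col1a2* was at 996 and 788 TPM in the MEFs and at most at 0.25 TPM in the kidney lines, but *Dcn* was between 6.73 and 50.3 TPM in the kidney lines and at 7.08 and 422 TPM in the MEFs, and *Thy1* was at 0 in Tsc2+/+ MEFs.

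Expression of the family was uneven. Of the 37 genes, 18 reached 10 TPM in at least 1 library, 9 peaked between 1 and 10 TPM, and 10 stayed under 1 TPM in every library. The last group was *Itga2*, *Itga4*, *Itga8*, *Itga9*, *Itgad*, *Itgae*, *Itgam*, *Itgax*, *Lama2* and *Lamc3*, the highest value among them being 0.661 TPM. *Itgb1*, the beta subunit that pairs with most alpha subunits, had the highest level of the family in 5 of the 6 libraries. It was at 186 TPM in Tsc2+/+ and 286 TPM in Tsc2-/- MEFs, at 346 and 414 TPM in untreated and rapamycin-treated MKOC cells, and at 323 and 370 TPM in untreated and treated TJ cells. *Itga3* was just above it in treated TJ cells only, and in untreated kidney cells *Itgb1* was followed by *Itga3* in both lines.

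**Figure D1:**
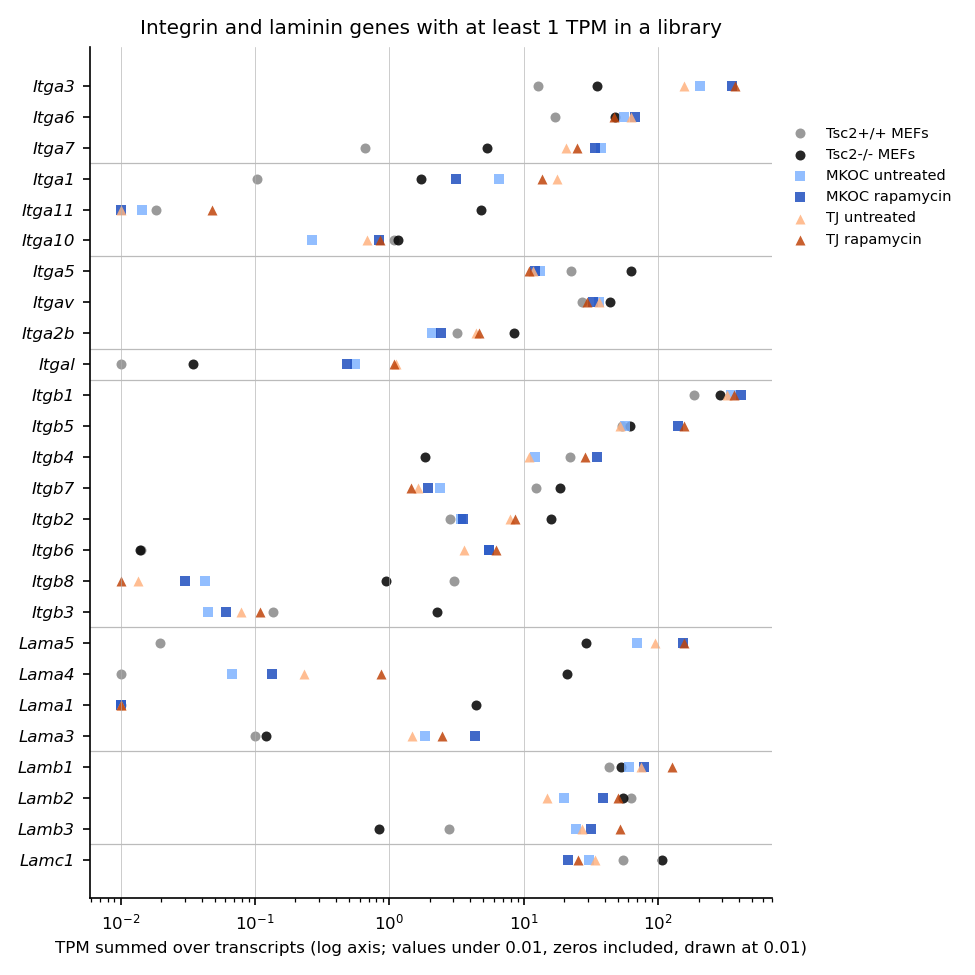
Level of 26 of the 27 integrin and laminin genes that reached at least 1 TPM in a library, as TPM summed over transcripts on a log axis. Each point is 1 library, with MEFs as circles, MKOC as squares and TJ as triangles. *Itga3* in the kidney libraries lies between 156 and 372 TPM, to the right of both MEF libraries, and *Lama5* is at 0.0198 TPM in Tsc2+/+ MEFs but between 28.8 and 157 TPM in the other 5 libraries.

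*Itga3* encodes the alpha subunit of a laminin receptor of epithelial cells, and most of its TPM was assigned to 2 of its 6 transcripts, which have different start sites. The gene is on chromosome 11, minus strand, from 95044474 to 95076801 in GRCm38. The transcript Itga3-201 starts at 95076714 and has 26 exons, and Itga3-202 starts 7516 bases further down the gene and has 25 exons. They share 24 exons and differ in the first part of the coding sequence, which is 3159 bases long in Itga3-201 and 3066 bases long in Itga3-202. The 250 bases before each start are shown because the share of Itga3-202 differed between cell types. They are from RefSeq (GRCm38.p6), read 5′ to 3′ on the minus strand, with matches to the GC box GGGCGG on either strand in capitals.
Itga3-201, chr11:95076715-95076964: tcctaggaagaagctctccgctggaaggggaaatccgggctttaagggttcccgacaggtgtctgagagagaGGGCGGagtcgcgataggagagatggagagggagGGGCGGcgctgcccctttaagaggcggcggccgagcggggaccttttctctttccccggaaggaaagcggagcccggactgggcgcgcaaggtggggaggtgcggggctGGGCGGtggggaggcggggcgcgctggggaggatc
Itga3-202, chr11:95069199-95069448: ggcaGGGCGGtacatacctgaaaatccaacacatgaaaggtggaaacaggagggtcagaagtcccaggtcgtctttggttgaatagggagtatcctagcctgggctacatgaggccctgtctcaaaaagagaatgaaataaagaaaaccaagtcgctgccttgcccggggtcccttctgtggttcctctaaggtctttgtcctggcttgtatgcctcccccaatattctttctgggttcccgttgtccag

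The first of these stretches holds 3 GC boxes and 22 CpG dinucleotides with 67.6% G and C, and the second holds 1 GC box and 5 CpG with 50.8% G and C. Itga3-201 was at 10.1 TPM in Tsc2+/+ and 29.5 TPM in Tsc2-/- MEFs, at 136 and 215 TPM in untreated and treated MKOC cells, and at 97.8 and 273 TPM in untreated and treated TJ cells. Itga3-202, in the same order, was at 0.588, 1.55, 56.3, 106, 44.8 and 67.5 TPM. Itga3-202, with the downstream start, thus took 4.64% and 4.45% of *Itga3* TPM in the MEF libraries and between 18.1% and 30.1% in the kidney libraries, with no overlap between the cell types. The lowest kidney share, 18.1%, was that of treated TJ cells, and the untreated lines had 27.5% (MKOC) and 28.6% (TJ). Under rapamycin the share went to 30.1% in MKOC and to 18.1% in TJ cells, opposite ways in the 2 lines. Shares were split between overlapping transcripts by Kallisto and were not tested.

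**Figure D2:**
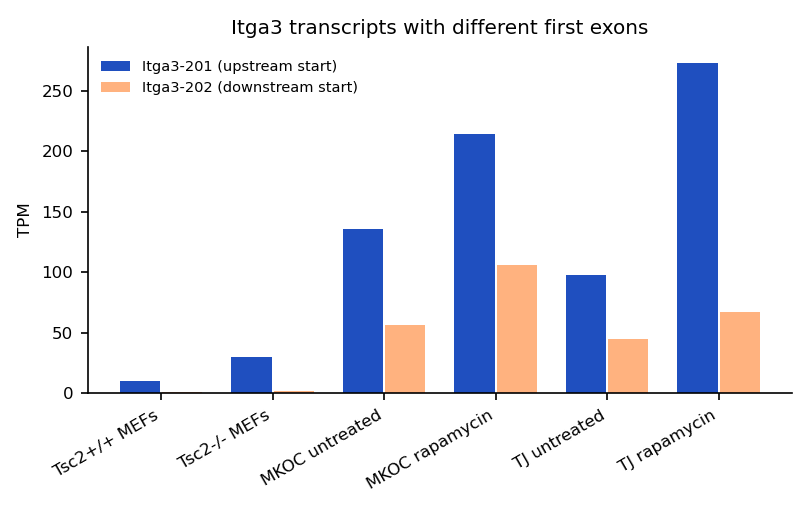
TPM of the *Itga3* transcripts that begin at the upstream start (Itga3-201, blue) and the downstream start (Itga3-202, orange), 1 bar per library. The orange bars are at 0.588 and 1.55 TPM in the MEFs and between 44.8 and 106 TPM in the kidney lines.

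The comparison of rapamycin with no treatment asks which genes move when mTORC1 is inhibited in the kidney lines labelled Tsc2-null. Of the 26 members with enough counts to be tested, 8 rose and 2 fell with rapamycin at an adjusted p under 0.05 (edgeR with the cell line as a term). Among all 12952 genes tested, 17.5% rose and 17.4% fell. The median log2 fold change was 0.37 over the tested members and 0.015 over all genes. The MKOC and TJ lines are the only replicates. With the line as a term, the spread is how far the rapamycin change differed between these 2 lines, partly shared over all genes tested.

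Both of the beta subunits with the largest changes rose well over 2-fold. *Itgb4*, which pairs with the product of *Itga6* in the hemidesmosome, a junction that anchors keratin filaments to laminin, went from 12.2 to 35.0 TPM in MKOC cells and from 10.9 to 28.8 TPM in TJ cells. Its log2 fold change was 1.56 (SE 0.11, adjusted p = 1.33e-05). *Itgb5*, which pairs with the product of *Itgav* as a receptor for vitronectin, went from 56.4 to 141 TPM in MKOC and from 52.2 to 156 TPM in TJ cells, with a log2 fold change of 1.45 (SE 0.11, adjusted p = 1.79e-05). In both genes the treated libraries lay above both untreated libraries. Their alpha partners did not pass the test. *Itgav* was at 36.2 and 32.9 TPM in untreated and treated MKOC cells and at 36.5 and 29.5 TPM in TJ cells, with a log2 fold change of -0.18 (SE 0.10, adjusted p = 0.18). *Itga6* was at 55.5 and 66.8 TPM in MKOC and at 63.1 and 46.8 TPM in TJ cells, which gave a log2 fold change of 0.29 in MKOC and -0.48 in TJ cells and an adjusted p of 0.67 over both. *Itgb1* had a log2 fold change of 0.22 (SE 0.10, adjusted p = 0.13), and *Itgb6*, a beta subunit of epithelial cells, was at 5.48 TPM in both MKOC libraries and at 3.58 and 6.24 TPM in untreated and treated TJ cells (adjusted p = 0.35). Its protein-coding transcripts were at 2.26 and 2.68 TPM in untreated and treated TJ cells, and its log2 fold change from counts was 0.22 in TJ cells.

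Among the alpha subunits, 1 rose and 1 fell. *Itga3* went from 205 to 352 TPM in MKOC cells and from 156 to 372 TPM in TJ cells, a log2 fold change of 1.0 (SE 0.13, adjusted p = 4.23e-04). *Itga1*, the alpha subunit of a collagen receptor, went from 6.60 to 3.11 TPM in MKOC and from 17.7 to 13.6 TPM in TJ cells, a log2 fold change of -0.71 (SE 0.16, adjusted p = 0.00698). For *Itga1* the treated TJ library was still above the untreated MKOC library, so the direction is seen within each line. *Itga7*, a laminin receptor subunit best known from muscle, was at 37.5 and 33.6 TPM in MKOC and at 20.5 and 24.9 TPM in TJ cells, and its log2 fold change of 0.05 had an adjusted p of 0.79. *Itga5*, the main fibronectin receptor subunit, stayed between 11.0 and 13.2 TPM in all 4 kidney libraries (log2 fold change -0.12, adjusted p = 0.45).

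In the laminins, 5 alpha and beta chain genes rose and *Lamc1* fell. *Lama5* went from 69.9 to 154 TPM in MKOC and from 94.0 to 157 TPM in TJ cells (log2 fold change 0.92, SE 0.11, adjusted p = 1.93e-04). *Lama3*, on chromosome 18, encodes the alpha chain of the laminin under hemidesmosomes and went from 1.83 to 4.35 TPM in MKOC and from 1.47 to 2.48 TPM in TJ cells (0.95, SE 0.18, adjusted p = 0.00307). All 3 beta chain genes rose. *Lamb2* went from 19.9 to 38.8 TPM in MKOC and from 14.8 to 50.1 TPM in TJ cells (log2 fold change 1.09, SE 0.12, adjusted p = 1.33e-04). *Lamb3*, the beta partner of the *Lama3* chain, went from 24.6 to 31.8 TPM in MKOC and from 27.1 to 51.8 TPM in TJ cells (0.85, SE 0.12, adjusted p = 5.65e-04). *Lamb1* went from 60.8 to 78.8 TPM in MKOC and from 74.7 to 127 TPM in TJ cells (0.56, SE 0.12, adjusted p = 0.00474). *Lamc1* went the other way. This gene, for the gamma chain of most laminins, went from 30.8 to 21.3 TPM in MKOC and from 34.1 to 25.5 TPM in TJ cells, a log2 fold change of -0.46 (SE 0.10, adjusted p = 0.00549). With the cell line left out of the fit, 9.84% of all genes were called and 5 of the 10 calls were left, namely *Itga3*, *Itgb4*, *Itgb5*, *Lama5* and *Lamb2*.

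**Figure D3:**
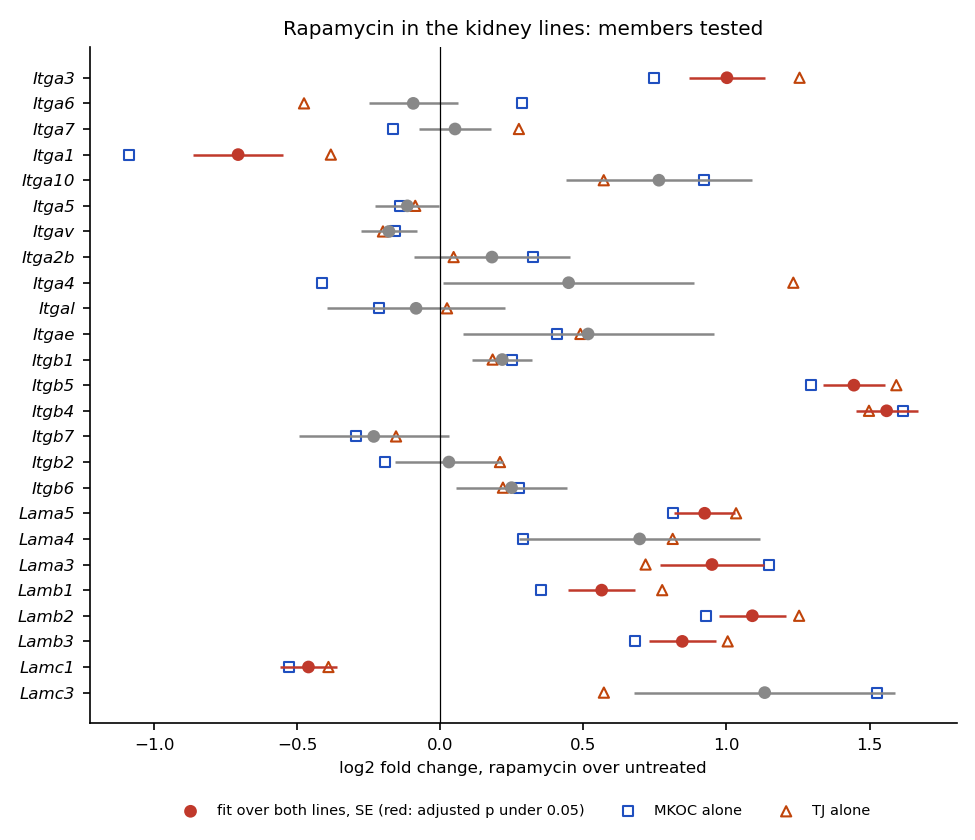
Log2 fold change with rapamycin of 25 of the 26 integrin and laminin genes tested in the kidney lines. Filled points with bars are the edgeR estimate over both lines and its SE, in red where the adjusted p was under 0.05, and open squares and triangles are the MKOC and TJ lines alone. *Itgb4* at 1.56 and *Itgb5* at 1.45 lie farthest to the right, *Itga1* at -0.71 farthest to the left, and the lines lie on opposite sides of 0 for *Itga6*.

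The starts of *Lama5* and *Itgb5* are shown because they hold 3 or more GC boxes and their genes rose with rapamycin, in the same lettering (RefSeq, GRCm38.p6).
Lama5, minus strand, chr2:180225860-180226109: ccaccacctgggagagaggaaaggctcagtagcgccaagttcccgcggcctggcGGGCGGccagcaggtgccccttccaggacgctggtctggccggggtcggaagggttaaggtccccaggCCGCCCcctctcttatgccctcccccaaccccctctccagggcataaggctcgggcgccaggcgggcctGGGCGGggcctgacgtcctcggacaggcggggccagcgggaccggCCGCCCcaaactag
Itgb5, plus strand, chr16:33829415-33829664: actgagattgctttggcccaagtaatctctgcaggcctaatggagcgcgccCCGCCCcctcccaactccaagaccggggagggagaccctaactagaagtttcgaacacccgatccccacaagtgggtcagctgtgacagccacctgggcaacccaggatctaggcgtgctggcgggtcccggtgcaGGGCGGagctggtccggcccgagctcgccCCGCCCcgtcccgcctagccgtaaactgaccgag

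These stretches hold 4 GC boxes with 72.4% G and C in *Lama5* and 3 GC boxes with 65.2% G and C in *Itgb5*, against a median of 52.4% over all promoters. RefSeq promoters matched 23 of the 37 genes with 26 starts. Of these 26 starts 9 (34.6%) held a GC box, GGGCGG on either strand, against 32.7% of all 32851 promoters of that length. None held the E-box CACGTG, which 6.02% of all promoters hold, and none held TATAAA, which 12.4% hold. The AP-1 site TGANTCA was in 1 start (3.85%, against 6.75% of all), that of *Itgax*. *Lamb2* and *Lamb3*, which also rose, held none of the 4 motifs, and the 250 bases of *Lamb2* had 43.6% G and C. The motif counts describe these windows, and no factor was measured.

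Genes that work with integrins and laminins were described by lists. Of 10 hemidesmosome and laminin-receptor partners tested, 6 rose and 1 fell with rapamycin, with a median log2 fold change of 0.39. *Plec*, the linker from integrins to keratin, rose by 1.10 on the log2 scale (adjusted p = 7.87e-05), *Dst*, another linker of the hemidesmosome, by 0.90, and *Bcam*, a receptor for the *Lama5* chain, by 0.73. *Sdc1*, a syndecan, fell by 0.42 on the log2 scale. Of the most abundant genes of the list, *Cd9* rose by 0.66, whereas *Cd81* (0.17, adjusted p = 0.27) and *Rpsa* (-0.14, adjusted p = 0.38) did not pass, and *Rpsa* has many near copies that could share its reads. In focal adhesion adaptors, 9 of 23 rose and 2 fell, with a median of 0.13. *Tns3*, a tensin, rose by 1.13 and the kinase gene *Src* by 0.69, while *Flna*, an actin crosslinker, rose by 0.55 and *Actn4* (-0.09) and *Zyx* (-0.01) did not pass. *Tns1*, another tensin, was called at 0.74 (adjusted p = 0.0264), but the lines went opposite ways, from 10.6 to 8.14 TPM in MKOC and from 12.8 to 33.5 TPM in TJ cells. Of 10 other basement membrane genes 4 rose and none fell, *Ntn4*, a laminin-related netrin, by 1.58, *Hspg2*, the perlecan gene, by 0.77 and *Agrn* by 0.63. Of 15 integrin ligand genes 6 rose and none fell, among them *Ctgf* by 2.47, *Thbs1* by 1.80 and *Ltbp1* by 1.60, whereas *Spp1*, the most abundant ligand gene, was at -0.01 (adjusted p = 0.94). These shares stand beside 17.5% of all genes that rose. The epithelial keratins rose too, *Krt7* by 1.16, *Krt8* by 0.79 and *Krt18* by 0.78, with 4 of 5 epithelial markers called. Of the markers of other cell types, 2 of 7 fibroblast markers (*Col3a1* by 1.53 and *Dcn* by 0.82), 1 of 2 mesothelial markers (*Msln* by 0.70), 1 of 2 leukocyte markers (*Csf1r* by 0.45) and 1 of 5 renal markers (*Cdh16* by 0.37) rose, and none fell. The part of these markers' cells in the changes of the family was not tested.

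Chain use, as a share of the protein-coding TPM of each class, differed between cell types. *Lama5* took between 95.6% and 97.8% of laminin alpha TPM in the 4 kidney libraries and 51.8% in Tsc2-/- MEFs, where *Lama4* took 38.6% and *Lama1* 8.15%. In Tsc2+/+ MEFs all laminin alpha chains together came to 0.120 TPM, so that shares there have no use. Beta chains were abundant in that library all the same, with 71.9 TPM in all. In the integrin alpha class *Itga3* took 61.3% and 54.4% in untreated MKOC and TJ cells and 73.3% and 77.0% with rapamycin. In the MEFs *Itga5* (33.8% and 37.8%) and *Itgav* (40.8% and 26.6%) held the larger shares. *Itgb1* took 81.0% (MKOC) and 80.9% (TJ) of integrin beta TPM in the untreated kidney lines, and 67.7% (MKOC) and 64.0% (TJ) with rapamycin, when *Itgb5* took 25.2% and 29.0%.

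**Figure D4:**
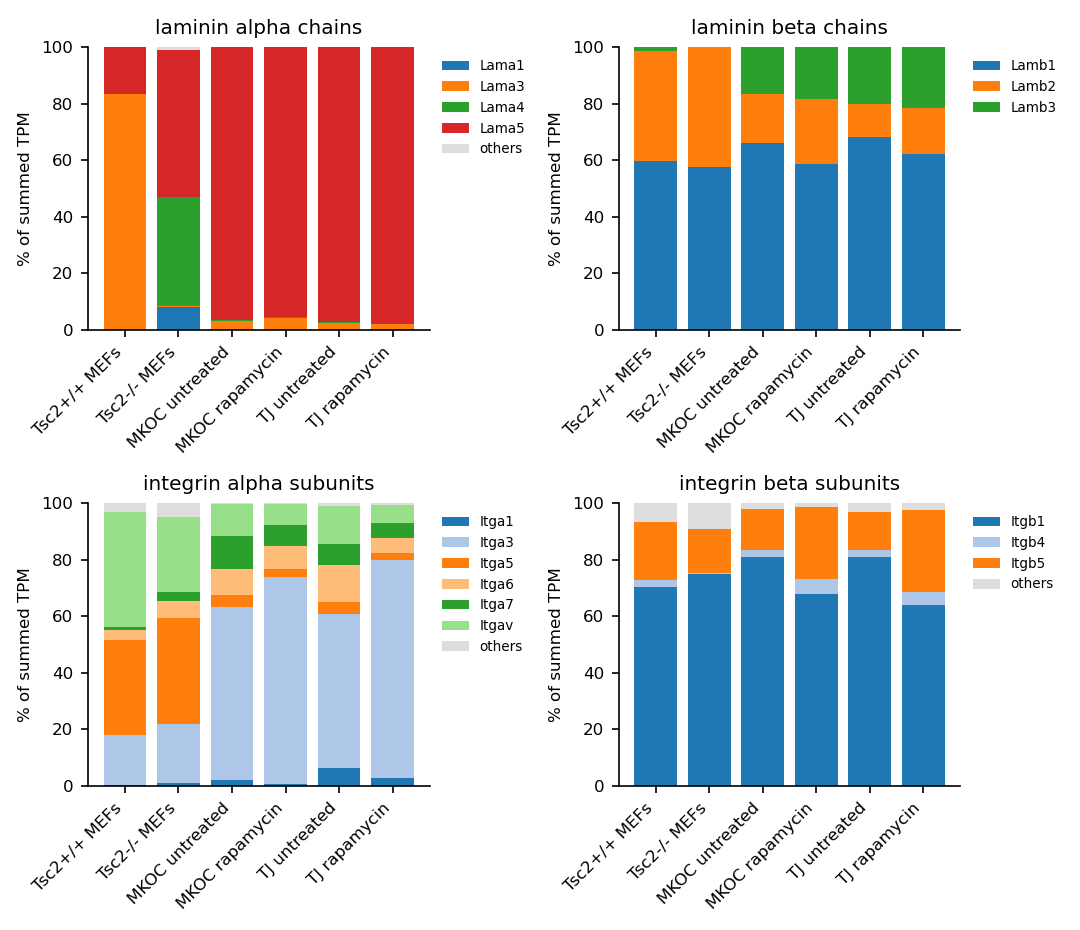
Share of each gene in the summed protein-coding TPM of its class (%), for laminin alpha and beta chains and integrin alpha and beta subunits, 1 bar per library. Genes that stay under 5% in every library are summed as others. *Lama5* fills at least 95.6% of the laminin alpha bar in the kidney lines, and the Tsc2+/+ MEF bar of that class stands for only 0.120 TPM in all.

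The TJ line, derived from a tumor, was compared with the MKOC line over both treatments. Of the 26 members tested, 5 were higher and 1 was lower in TJ cells, against 5.47% and 3.32% of all genes. *Itga1* (log2 fold change 1.73, SE 0.16, adjusted p = 1.83e-04) was higher at both treatments, by 1.40 untreated and 2.10 with rapamycin. *Itgb2*, the beta subunit of leukocyte integrins, was at 3.41 and 3.53 TPM in untreated and treated MKOC cells and at 7.87 and 8.57 TPM in TJ cells (1.31, SE 0.19, adjusted p = 0.00243). It had 15.9 TPM in Tsc2-/- and 2.80 TPM in Tsc2+/+ MEFs. Its alpha partner *Itgal* was between 0.481 and 1.11 TPM in the kidney lines, and the leukocyte marker *Ptprc* was at most at 0.0423 TPM there, but both leukocyte markers with enough counts to be tested were present. *Csf1r* was between 11.3 and 30.3 TPM and higher in TJ cells (log2 fold change 0.94, adjusted p = 0.00162), whereas *Cd68* was between 4.48 and 8.01 TPM with a log2 fold change of -0.05 (adjusted p = 0.94). The part of such cells in the *Itgb2* values was not tested.

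Laminin chains differed as well. *Lamb3* was higher in TJ cells by 0.68 (SE 0.12, adjusted p = 0.00653) and *Lamb1* by 0.45 (SE 0.12, adjusted p = 0.0411) on the log2 scale. *Lama4*, an alpha chain of vessel walls and mesenchyme, was called at 1.72 (SE 0.43, adjusted p = 0.0371) on few reads, namely 8 estimated counts in each MKOC library and 20 and 37 in TJ cells, or at most 0.869 TPM. *Itga7* was lower in TJ cells by a log2 fold change of -0.67 (SE 0.13, adjusted p = 0.00996). *Lama5* (0.21, adjusted p = 0.28) and *Itga3* (-0.17, adjusted p = 0.51) did not pass. Under the alternatives tried, *Lamb1* was called in 3 of 8, *Lamb3* in 6 of 8 and *Lama4* in 5 of 7, and *Itga1*, *Itga7* and *Itgb2* in 7 of 8 each. The comparison is of 2 single lines. The libraries of a line differ in treatment and are not replicate lines. The p-values therefore do not measure spread between tumor-derived lines or between other lines. With treatment left out of the fit no member and no gene was called by edgeR, with 5 members and 702 genes at an unadjusted p under 0.05, and limma on log2 TPM with the treatment term called 3 members.

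The collagen chains of the basement membrane also set the lines apart: *Col4a2* was lower in TJ cells by a log2 fold change of -2.34 and *Col4a1* by -1.71, while *Col4a4* was higher by 1.11. Of the 10 basement membrane genes tested, 4 were higher and 2 lower in TJ cells. Of the 15 integrin ligand genes, 4 were higher and 3 lower, *Fbln1* being higher by 2.79 and *Icam1* by 1.44 and *Fn1* lower with a log2 fold change of -1.29. These counts stand beside 5.47% and 3.32% of all genes, and none of these calls held with treatment left out.

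The untreated kidney lines were set against the 2 MEF lines, so that lines served as replicates of a cell type and the Tsc2 genotype of the MEFs is part of the spread. Of 28 members tested, 3 were higher and 3 were lower in the kidney lines, against 4.74% and 5.2% of all 13473 genes. *Itga3* was higher by 2.93 on the log2 scale (SE 0.44, adjusted p = 0.0382), from 12.7 and 34.9 TPM in the MEFs. *Itgb6* had 1 estimated count in each MEF library and 182 and 158 in untreated MKOC and TJ cells, a ratio of 184 in CPM, estimated counts scaled to the library total (95% interval from counting 50.5 to 1524, adjusted p = 0.0172). *Lama3* was at 0.100 and 0.120 TPM in the MEFs and higher by 3.85 in the kidney lines (SE 0.53, adjusted p = 0.0346).

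Of the members called lower in the kidney lines, *Itgb7*, a beta subunit known from lymphocytes, had the largest change. It was at 12.3 and 18.6 TPM in Tsc2+/+ and Tsc2-/- MEFs and at 2.39, 1.95, 1.62 and 1.46 TPM in untreated and treated MKOC and untreated and treated TJ cells. Its log2 fold change was -2.94 (SE 0.38, adjusted p = 0.0312). *Lamc1* was at 55.1 and 108 TPM in the MEFs (-1.40, SE 0.24, adjusted p = 0.0441) and *Lamb2* at 63.1 and 54.3 TPM (-1.27, SE 0.22, adjusted p = 0.0473). *Lama5* was not called (log2 fold change 2.17, SE 2.36), with the MEF libraries at 0.0198 and 28.8 TPM. *Itgb8* (-6.35, adjusted p = 0.0535), *Lamb3* (4.40, adjusted p = 0.057) and *Itga5* (-1.78, adjusted p = 0.068) also missed the threshold. These counts moved with the libraries used. With 1 line left out its group has 1 library, so the spread comes from the 2 lines of the other group alone and the lone library is assumed to vary like them. Counts of calls from such fits are therefore not given. With 1 line left out the log2 fold change ran from 2.54 to 3.52 for *Itga3* and from -3.24 to -2.65 for *Itgb7*, whereas for *Lama4* it ran from -7.21 to 6.98. With all 6 libraries, the treated ones being of the same kidney lines, edgeR called 12 members (23.4% of all genes). DESeq2 called 16 with the 4 untreated libraries (20.5% of all genes). With limma *Itga3*, *Lama3* and *Lamc1* were not called, and with no filter on low counts or with coding transcripts only *Lamb2* was not.

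The partner lists were compared between the cell types as well. Of 23 focal adhesion genes tested 1 was higher and none lower in the kidney lines, and of 10 hemidesmosome and laminin-receptor partners 1 was higher and none lower, beside 4.74% and 5.2% of all genes. Of 21 integrin ligand genes 5 were lower and 1 higher in the kidney lines, with a median log2 fold change of -3.74. *Fn1* was at 1306 and 612 TPM in Tsc2+/+ and Tsc2-/- MEFs and at 32.6 and 12.9 TPM in untreated MKOC and TJ cells. *Nid1*, which ties laminin to collagen IV in the basement membrane, was at 211 and 221 TPM in the MEFs and at most at 0.0339 TPM in the kidney lines, and *Col18a1* was higher in the kidney lines by 3.71. Of 14 basement membrane genes 2 were higher and 3 lower. Epithelial markers (3 of 6) and renal markers (4 of 5) were higher and fibroblast markers (7 of 8) lower, as the labels name the cells. *Col1a1* is both a ligand and a fibroblast marker here.

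The Tsc2-/- and Tsc2+/+ MEFs bear on the study's question of what changes when *Tsc2* is lost. Each genotype is 1 library, and the one labelled Tsc2-/- held *Tsc2* RNA, as given above. There is no test, and a gene was counted as past the fold where TPM with 1 added differed at least 2-fold. Of the 24 members with at least 1 TPM in a MEF library, 13 were past the fold as higher and 3 as lower in Tsc2-/- MEFs, against 25.2% and 5.18% of 12771 genes. The median log2 fold change was 1.23 over these members and 0.45 over all genes. TPM ran higher in the Tsc2-/- library as a whole, with a median ratio of 1.31 over 7377 genes with at least 10 TPM in both (0.39 on the log2 scale). After scaling to a median ratio of 1, 12 members were higher and 3 lower, against 15.8% and 8.21% of all genes.

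In TPM the laminin alpha genes *Lama5* and *Lama4* had the largest log2 fold changes of the family, 4.87 and 4.46. *Lama5* was at 0.0198 TPM in Tsc2+/+ MEFs (7 estimated counts) and at 28.8 TPM in Tsc2-/- MEFs (4879 estimated counts), a ratio of 1089 in CPM with a 95% interval from counting of 528 to 2709. No estimated count of *Lama4* was made in Tsc2+/+ MEFs, where up to 0.0162 TPM could have gone unseen. Its Tsc2-/- value was 20.97 TPM (1904 estimated counts). With a floor of 3 counts per library this is at least 991-fold higher in CPM. *Lama1*, the alpha chain of early embryonic basement membranes, was likewise at 0 (up to 0.0102 TPM) against 4.42 TPM from 639 estimated counts, at least 333-fold higher by the same floor. *Lama2*, at 0 and 0.661 TPM, was left out of the count because it was under 1 TPM in both libraries, but its 0 and 96 estimated counts make it at least 49.98-fold higher in CPM by that floor. *Lama3* was at 0.100 and 0.120 TPM in Tsc2+/+ and Tsc2-/- MEFs. The library of Tsc2+/+ MEFs thus held next to no laminin alpha chain RNA, while *Lamb1* was at 43.1 and 53.0 TPM and *Lamc1* at 55.1 and 108 TPM in Tsc2+/+ and Tsc2-/- MEFs. The gamma chain gene *Lamc3*, also under 1 TPM, had 0 and 48 estimated counts, at least 24.99-fold higher in CPM.

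Of the 13 members past the fold as higher, 9 were integrin genes. *Itga11*, a receptor for fibrillar collagen in fibroblasts, had 2 estimated counts in Tsc2+/+ and 358 in Tsc2-/- MEFs, a ratio of 280 in CPM (interval 76.8 to 2318). *Itga5* was at 22.3 TPM (95% counting interval 21.5 to 23.1) in Tsc2+/+ and 62.5 TPM (60.6 to 64.5) in Tsc2-/- MEFs, and *Itga3* at 12.7 TPM (12.1 to 13.3) and 34.9 TPM (33.5 to 36.4). Higher values in the same library were also seen for *Itga7* (0.654 and 5.34 TPM), *Itga1* (0.104 and 1.71 TPM) and *Itgb3* (0.136 and 2.27 TPM), the last known as the beta subunit of vitronectin receptors. *Itga2b*, at 3.20 and 8.45 TPM, was past the fold in TPM (log2 fold change 1.17) but within 2-fold after scaling (0.83), in CPM (0.91) and in protein-coding TPM (0.86). *Itgb1* and *Itgav*, with log2 fold changes of 0.62 and 0.69, were within 2-fold. Intervals here cover counting error only and say nothing of the spread between cultures.

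Lower in Tsc2-/- MEFs were *Itgb4*, *Itgb8* and *Lamb3*. *Itgb4* was at 22.03 TPM from 1403 estimated counts in Tsc2+/+ and at 1.83 TPM from 46 in Tsc2-/- MEFs, a log2 fold change of -3.02. *Itgb8*, a beta subunit that binds latent TGF-beta, was at 3.05 and 0.943 TPM, and *Lamb3* at 2.79 and 0.833 TPM. The last is within 2-fold when only protein-coding transcripts are counted (-0.81). *Lamb2* had no stable direction, since its log2 fold change was -0.21 in TPM, 0.14 in CPM and 0.46 in protein-coding TPM. For *Itgb5*, *Lamb1* and *Itga10* the small positive log2 fold changes turned negative after scaling. All 6 mesothelial markers, such as *Upk3b* and *Wt1*, were also higher in Tsc2-/- MEFs, summing to 2.66 TPM in Tsc2+/+ and 478 TPM in Tsc2-/- MEFs, as were *Krt18* (0 and 20.6 TPM) and *Krt19* (0.0506 and 55.6 TPM). Between 70.3 and 151 TPM of the mesothelial markers were summed in the kidney lines, nearly all of it *Msln*. In the MEFs the epithelial markers *Krt8* and *Cdh1* stayed low, at 0.477 and 0.321 TPM in Tsc2-/- cells. Both leukocyte markers measured were higher there, *Cd68* (1.69 and 6.78 TPM) and *Csf1r* (0.0162 and 1.77 TPM). Of 9 fibroblast markers measured, 3 were higher and 1 was lower. The part of mesothelial-type or other cells in the laminin and integrin values was not tested.

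**Figure D5:**
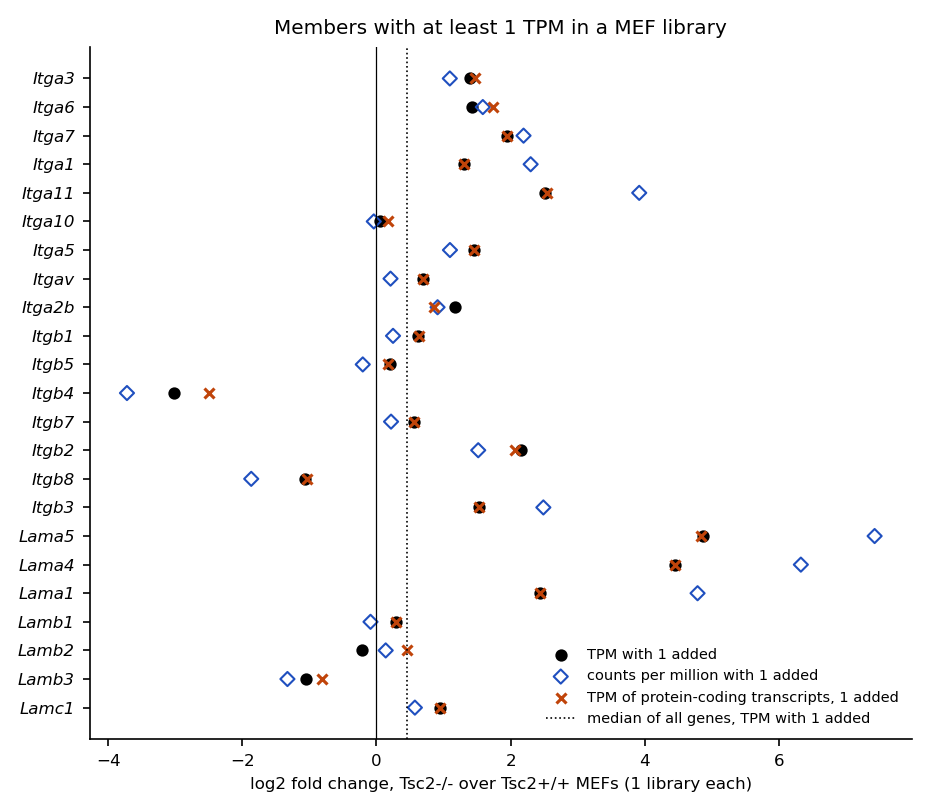
Log2 fold change of Tsc2-/- over Tsc2+/+ MEFs for 23 of the 24 members with at least 1 TPM in a MEF library, from TPM (filled), CPM (diamonds) and protein-coding TPM (crosses), each with 1 added, 1 library per genotype. The dotted line is the median of all genes at 0.45. *Lama5* at 4.87 and *Lama4* at 4.46 lie farthest to the right in TPM and *Itgb4* at -3.02 farthest to the left.

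Of the partner lists, the other basement membrane genes were higher in 7 of 11 and lower in none in Tsc2-/- MEFs, with a median log2 fold change of 1.68, beside 25.2% and 5.18% of all genes and a median of 0.45. After scaling to a median ratio of 1, 6 were higher and 2 lower, beside 15.8% and 8.21%. *Sparc*, a matricellular protein, was at 460 and 1097 TPM (log2 fold change 1.25, or 0.86 after scaling) and *Col4a1* at 14.95 and 92.5 TPM in Tsc2+/+ and Tsc2-/- MEFs. Focal adhesion adaptors were higher in 9 of 20 and lower in none (median 0.80), and after scaling in 6 and none (median 0.41). *Zyx* was at 186 and 522 TPM and *Actn4* at 111 and 244 TPM (log2 fold change 1.13, or 0.75 after scaling, which is within 2-fold). Of 20 integrin ligand genes 9 were higher and 6 lower (9 and 7 after scaling), with *Spp1* at 794 and 29.0 TPM and *Thbs1* at 9.63 and 165 TPM. Hemidesmosome and laminin-receptor partners were higher in 5 of 10 and lower in 1 (median 0.95), and after scaling in 3 and 1 (median 0.57).

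TPM sums of some members rest on short transcripts that do not code for the protein, since a few reads on a short transcript make a large TPM. *Itga2b* had between 78.2% and 93.5% of its TPM on such transcripts in the 6 libraries. In *Itga6* the 443-base processed transcript Itga6-205 took 13.4 of 17.0 TPM in Tsc2+/+ and 30.8 of 47.4 TPM in Tsc2-/- MEFs on the strength of 104 and 125 estimated counts, but at most 2.70 TPM in the kidney lines. The protein-coding *Itga6* TPM was 2.19 in Tsc2+/+ and 9.61 in Tsc2-/- MEFs and between 25.2 and 37.9 in the kidney libraries, so that by coding transcripts the kidney lines stood above both MEF libraries. A processed transcript of 521 bases gave 13.9 of the 22.03 TPM of *Itgb4* in Tsc2+/+ MEFs, and the coding sums there were 7.33 TPM against 0.471 TPM in Tsc2-/- MEFs. The 221-base Lamb2-202 with a retained intron gave 21.5 TPM in Tsc2+/+ MEFs from 15.6 estimated counts and 11.8 TPM in treated TJ cells from 7.61 estimated counts, and 0 in the other 4 libraries. Of *Lama5* in the kidney lines, the 451-base Lama5-202 gave between 8.20 and 28.6 TPM, and the coding transcript Lama5-201 went from 54.6 to 95.5 TPM in MKOC and from 58.8 to 122 TPM in TJ cells with rapamycin. With only coding transcripts the test again called 8 members higher and 2 lower with rapamycin, beside 17.5% and 18.3% of all genes.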

How the data were processed

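Poly(A) RNA of 6 mouse libraries, 1 per condition, was sequenced as paired-end reads of a stranded kit. The authors trimmed the reads with Trimmomatic, ran Kallisto (version not given in the sources used here) and deposited estimated counts, TPM and effective lengths for 88198 transcripts. Their methods name a human reference, but the identifiers are Ensembl mouse transcripts. A deposited ratio of the MEF libraries was used only for its gene symbols. Counts without a symbol (0.372% to 0.468% of a library) were left out.

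Counts and TPM were summed per symbol for 30281 symbols, and counts were rounded. edgeR 4.0.16 (filterByExpr, TMM, quasi-likelihood test, Benjamini-Hochberg over all genes, threshold 0.05) compared rapamycin with untreated kidney libraries with the line as a term, the lines in the same fit, and untreated kidney lines with MEFs. Same-line libraries deviated together (correlation 0.56 over 12952 genes), and the titles give the line. MEFs got log2 of TPM with 1 added, without a test. TPM does not keep depth, so 95% Wilson intervals and a floor of 3 counts come from the estimated counts and cover counting error only; ratios on few counts have exact binomial intervals. Alternatives were DESeq2 1.42.0, limma 3.58.1, other normalizations, filters, covariates, samples, pseudocounts and scaling, and, chosen after seeing the data, protein-coding transcripts only. The edgeR fits and the MEF fold change step were tested on simulated data, and the other steps were not. R was 4.3.3, Python 3.11.15, pandas 2.3.3 and scipy 1.17.1. Positions are from GENCODE M21 (GRCm38), which holds all 37 genes. Values of 1 member and 1 marker are not reported here, while counts over the whole family or list include them.

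The members, the lists and the tests were chosen with earlier results of these data known. Values are printed per library for members with at least 10 TPM in a library or a call in a test. Of each list, the 3 most abundant genes and the 3 with the largest called change were to be named; *Sdc1*, *Krt19* and some other markers were added after their values were seen. Transcripts were described where at least 2 took 20% of a member's TPM.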

Additional observations from a re-analysis of the deposited data

Results flagged for a closer look

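Among members with at least 10 TPM in a library, *Itga6* and *Itga7* had log2 fold changes of opposite sign with rapamycin in the 2 kidney lines, each beyond its 95% counting error. The log2 fold change of *Itga6* was 0.29 in MKOC cells and -0.48 in TJ cells, from 3662 and 3483 estimated counts in untreated and treated MKOC cells and 3797 and 2755 in TJ cells. That of *Itga7* was -0.17 in MKOC cells and 0.27 in TJ cells. Signs also differed between MKOC and TJ cells, within counting error in at least 1 line, for *Itgb2* (-0.19 and 0.21), *Itga4* (-0.41 and 1.23) and *Itgal* (-0.21 and 0.02), among others. With 1 library per line and treatment the difference between the lines was not tested.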

How the results depend on the processing

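The rapamycin count of 10 members (8 higher, 2 lower) was the same under DESeq2, limma, 2 other normalizations, 2 other filters and protein-coding transcripts. The share of all genes called moved, from 34.9% in the edgeR fit given above (26 members tested) to 15.3% with DESeq2 (36 tested). It was 28.2% with limma (21 tested) and 25.4% with no filter (36 tested). With the remaining settings of that list it was between 33.7% and 35.7%. The pairing of libraries by line matters: with no replicate block 5 members and 1275 of all genes were called, against 10 and 4526. For TJ against MKOC, 6 members and 1139 genes were called, 3 and 469 with limma, 0 and 0 with treatment left out, 603 genes with DESeq2 and 1753 with no filter. The kidney lines against MEFs gave 6 members and 1338 genes, 12 and 3235 with all 6 libraries, 16 and 4214 with DESeq2, and with 1 line left out between 0 and 22 members and between 0 and 7924 genes (22 members with 6886 genes, 17 members with 7924). For the MEFs, 16 members were past 2-fold, 8 with 5 added to TPM and 7 past 4-fold. The cause of these shifts was not tested.

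Some directions turned. *Itgb5* in TJ against MKOC was -0.03, 0.017 with limma and 0.039 with treatment left out. *Itgav* in kidney lines against MEFs was -0.01, 0.022 with 6 libraries, 0.013 with DESeq2, 0.070 with limma, 0.0090 with no filter, and 0.00038 with RLE size factors. With 1 line left out of this comparison *Itgav* ran from -0.080 to 0.11, *Itgb2* (-0.64 with all 4 libraries) from -1.27 to 0.34, *Itgb4* (0.86 with all 4 libraries) from -0.064 to 4.35, *Itgb5* from -0.33 to 0.0031 and *Lama4* (-6.22 with all 4 libraries) from -7.21 to 6.98, the turns being without TJ and without Tsc2-/- MEFs (*Itgav*), without Tsc2-/- MEFs (*Itgb2*, *Itgb4* and *Lama4*) and without Tsc2+/+ MEFs (*Itgb5*). Leaving out a line for rapamycin, or a treatment for TJ against MKOC, leaves values without a test. Depth limits members with few counts, such as *Lama4* in the kidney lines.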
